A study of Homo sapiens with 12 samples.

Results

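The entry of pyruvate into mitochondrial metabolism was described through 10 genes in human melanoma cells grown in 1% oxygen or in atmospheric oxygen. The genes were the 4 pyruvate dehydrogenase kinases (PDK1, PDK2, PDK3, PDK4), the 2 phosphatases that reverse them (PDP1, PDP2), the 2 subunits of the dehydrogenase's first enzyme (PDHA1, PDHB) and the 2 subunits of the mitochondrial pyruvate carrier (MPC1, MPC2). They were chosen by name, through Ensembl gene IDs mapped to symbols, and made up 10 of the 60656 gene IDs in the deposited count table. All 10 were among the 19636 genes with enough counts to be tested. Messenger RNA had been sequenced from the metastatic melanoma lines A2058, A375 and SKMEL-5. There were 3 hypoxic groups, with each line under 1% oxygen, and 3 normoxic groups, with the same lines under atmospheric oxygen. Each of the 6 groups had 2 libraries, described by the submitters as biological duplicates, so 12 libraries were analysed, and no other agent or allele is named in the labels. The length of the exposure to hypoxia is not given in the sources used here.

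Pyruvate made by glycolysis crosses the inner mitochondrial membrane through a carrier formed of MPC1 and MPC2. In the matrix the pyruvate dehydrogenase complex turns it into acetyl-CoA, which feeds the citric acid cycle. The kinases phosphorylate the catalytic alpha subunit encoded by PDHA1 and switch the complex off, and the phosphatases take the phosphate away and switch it on again. Pyruvate that does not enter is reduced to lactate. PDK1 is a well-known target of the hypoxia-inducible factor HIF-1, and its induction at low oxygen is known to lower the flux of pyruvate into the cycle. Messenger RNA was measured here, and neither phosphorylation nor flux.

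The hypoxia-inducible factors bind DNA at sites built round the letters ACGTG or GCGTG, so the promoters of the 4 kinases are shown with those letters marked. Each stretch runs 5′ to 3′ on the strand of its gene, from 250 bases before to 50 bases after an annotated start (RefSeq, GRCh38.p14). Capitals mark ACGTG or GCGTG on the printed strand, and CACGT where ACGTG lies on the other strand. The windows are chr2:172555840-172556139 (plus strand) for PDK1, chrX:24465036-24465335 (plus strand) for PDK3, chr17:50095101-50095400 (plus strand) for PDK2 and chr7:95596467-95596766 (minus strand) for PDK4.
PDK1: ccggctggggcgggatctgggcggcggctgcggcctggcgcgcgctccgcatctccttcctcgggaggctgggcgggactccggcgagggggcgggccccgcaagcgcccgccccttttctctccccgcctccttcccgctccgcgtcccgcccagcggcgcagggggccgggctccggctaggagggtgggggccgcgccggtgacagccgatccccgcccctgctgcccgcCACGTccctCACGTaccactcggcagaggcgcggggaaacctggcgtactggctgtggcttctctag
PDK3: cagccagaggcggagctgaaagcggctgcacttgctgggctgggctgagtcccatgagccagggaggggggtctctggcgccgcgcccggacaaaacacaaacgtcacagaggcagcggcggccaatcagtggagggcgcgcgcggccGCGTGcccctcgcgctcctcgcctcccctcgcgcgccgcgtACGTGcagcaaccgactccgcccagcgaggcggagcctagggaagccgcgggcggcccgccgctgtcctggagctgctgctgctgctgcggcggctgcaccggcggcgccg
PDK2: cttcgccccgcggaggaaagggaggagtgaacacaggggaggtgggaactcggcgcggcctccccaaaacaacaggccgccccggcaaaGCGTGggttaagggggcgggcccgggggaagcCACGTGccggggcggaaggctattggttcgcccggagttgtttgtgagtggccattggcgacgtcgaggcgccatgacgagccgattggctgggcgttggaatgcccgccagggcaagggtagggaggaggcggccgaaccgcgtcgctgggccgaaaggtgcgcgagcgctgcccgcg
PDK4: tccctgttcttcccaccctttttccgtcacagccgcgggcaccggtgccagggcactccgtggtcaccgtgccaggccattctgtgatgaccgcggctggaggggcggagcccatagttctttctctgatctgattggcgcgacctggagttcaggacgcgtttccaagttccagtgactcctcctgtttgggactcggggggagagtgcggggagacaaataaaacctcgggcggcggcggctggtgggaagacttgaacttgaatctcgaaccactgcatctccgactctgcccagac
The PDK1 window held ACGTG at 2 places, both on the strand opposite to the printed one and both just before the annotated start, at positions 234 and 243 counted from the window's 5′ end. The PDK3 window held 1 GCGTG at position 149 and 1 ACGTG at position 190. The PDK2 window held 1 GCGTG at position 90 and the palindrome CACGTG, which contains ACGTG on both strands. The PDK4 window held neither. A further PDK1 window and 2 further PDK2 windows, at other annotated starts, held neither. The other members with ACGTG in a window were PDP2 and PDHB.

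Of the 10 members, 9 matched an entry in the promoter table (not PDP1), with 14 windows among them. ACGTG was in 5 of these 14 windows, and in 21.4% of the 35116 windows of all genes. GCGTG was in 7 of the 14, against 36.5% of all windows, and either was in 9 of the 14, against 48.4%. The letters are common in promoters, and a match is a description of the sequence.

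Library totals ran from 33831569 to 54202819 counts. A hypoxic library of each line stood apart from the other 9 libraries, namely replicate 2 of A2058 and replicate 1 of both A375 and SKMEL-5: on the first principal component, after each line's mean was taken out, they lay at 72.7, 132 and 108, and the others between -64.0 and -7.45. That component held 47.1% of the variance, and the mean changes and ratios of the members are given with and without these 3 libraries. Mitochondrially encoded genes took 0.648% to 3.32% of counts in hypoxic libraries and 2.79% to 20.1% in normoxic libraries. A375 and SKMEL-5 libraries resembled each other as closely as libraries of a single line did: across 19636 genes, the correlation of log2 CPM was 0.912 to 0.990 between them and 0.917 to 0.982 within A375. Whether their libraries come from distinct lines was not tested, and the lines are named as labelled. TYR and MLANA, which mark pigment cells, had no count in any A375 or SKMEL-5 library, while SOX10 was at 765 to 1684 CPM (counts of a gene scaled to a common library size) in all 12. Summed fibroblast markers were at 14.8 to 110 CPM in hypoxic and 10.3 to 27.9 CPM in normoxic libraries. Of the 8 fibroblast markers, edgeR called 0 in the mean of the 3 lines (1.12% of all tested genes), with 4 at an unadjusted p under 0.05 (19%). DESeq2 called 3 (8.7% of the genes to which it gave an adjusted p) and limma-voom 0 (0.906%), and none was at 0 in all libraries. The 10 melanoma and melanocyte markers summed to 2139 to 10001 CPM in hypoxic and 1908 to 3866 CPM in normoxic libraries. Of these edgeR called 0, with 1 at an unadjusted p under 0.05, DESeq2 called 1 and limma-voom 0. Keratinocyte markers summed to 54.0 to 144 CPM in hypoxic and 43.6 to 103 CPM in normoxic libraries, and blood markers to 1.30 to 15.2 CPM in hypoxic and 0.551 to 10.3 CPM in normoxic libraries. The part of these library differences in the members' values was not tested. In these bulk samples fewer cells of a kind and less RNA per cell cannot be told apart.

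PDK1 and PDK3 were higher in 1% oxygen in every line, and they were the 2 of the 10 members that passed the test of the mean change over the 3 lines. Over all tested genes 1.12% passed that test, with 192 that rose (0.978%) and 28 that fell (0.143%). PDK1 had 4.63-fold more RNA in hypoxia on average and PDK3 2.86-fold more. PDK2, PDK4, both phosphatases, both dehydrogenase subunits and both carrier subunits did not pass. Levels are CPM scaled by TMM (trimmed mean of M values), and a gene was called at an adjusted p under 0.05 in edgeR's quasi-likelihood test with Benjamini-Hochberg adjustment over all tested genes.

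PDK1 (ENSG00000152256.14, chr2:172555373-172608669 on GRCh38) encodes the kinase of the family best known for its response to hypoxia. Its level was 161 and 276 CPM in hypoxic A2058 cells, against 72.7 and 15.5 CPM in normoxic A2058 cells. In A375 it was 119 and 109 CPM in hypoxia, against 22.7 and 15.0 CPM in normoxia. In SKMEL-5 it was 66.0 and 107 CPM in hypoxia, against 38.5 and 13.7 CPM in normoxia. Each hypoxic value was above both normoxic values of its line, and the gap was narrowest in SKMEL-5. The 3-line mean change was 2.21 ± 0.40 on the log2 scale (SE, adjusted p = 0.0295). By line the PDK1 change was 2.31 ± 0.70 in A2058 and 2.59 ± 0.70 in A375, and SKMEL-5 had 1.73 ± 0.68.

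The normoxic level of PDK1 varied between replicates. Normoxic replicate 1 had 4.70-fold the PDK1 level of replicate 2 in A2058, 1.52-fold in A375 and 2.82-fold in SKMEL-5. CA9, a carbonic anhydrase that is a standard marker of hypoxia, was at 352 to 725 CPM in the hypoxic libraries. In normoxic replicates 1 and 2 it was at 19.0 and 0.0826 CPM in A2058, at 4.91 and 0.805 CPM in A375 and at 9.81 and 0.223 CPM in SKMEL-5. In each line normoxic replicate 1 was thus the normoxic library with more of both transcripts. The part of this difference in the PDK1 change was not tested. Without A2058 normoxia 1 the log2 change of PDK1 was 2.72 (adjusted p = 0.0160), without A375 normoxia 1 it was 2.32 (adjusted p = 0.103), and without SKMEL-5 normoxia 1 it was 2.53 (adjusted p = 0.0531).

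PDK3 (ENSG00000067992.16, chrX:24465221-24541862) encodes a kinase of the same family that is known to be weakly inhibited by pyruvate. It was at 70.4 and 217 CPM in hypoxic A2058 cells, against 30.5 and 18.5 CPM in normoxic A2058 cells. In A375 the values were 24.2 and 54.0 CPM in hypoxia, against 22.7 and 18.1 CPM in normoxia. In SKMEL-5 they were 41.8 and 58.4 CPM in hypoxia, against 25.4 and 22.8 CPM in normoxia. The highest value was in A2058 hypoxia 2, and in A375 the lower hypoxic library lay just above the higher normoxic one. The 3-line mean change was 1.52 ± 0.32 (log2, SE, adjusted p = 0.0496), which lies at the threshold. The change was 2.55 ± 0.57 in A2058, while A375 had 0.94 ± 0.54 and SKMEL-5 had 1.05 ± 0.54. The A2058 and A375 values leaned on single libraries: the A2058 value was 1.53 without A2058 hypoxia 2, and the A375 value was 0.23 without A375 hypoxia 2. The SKMEL-5 value stayed between 0.79 and 1.28 when single libraries were left out.

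**Figure D1:**
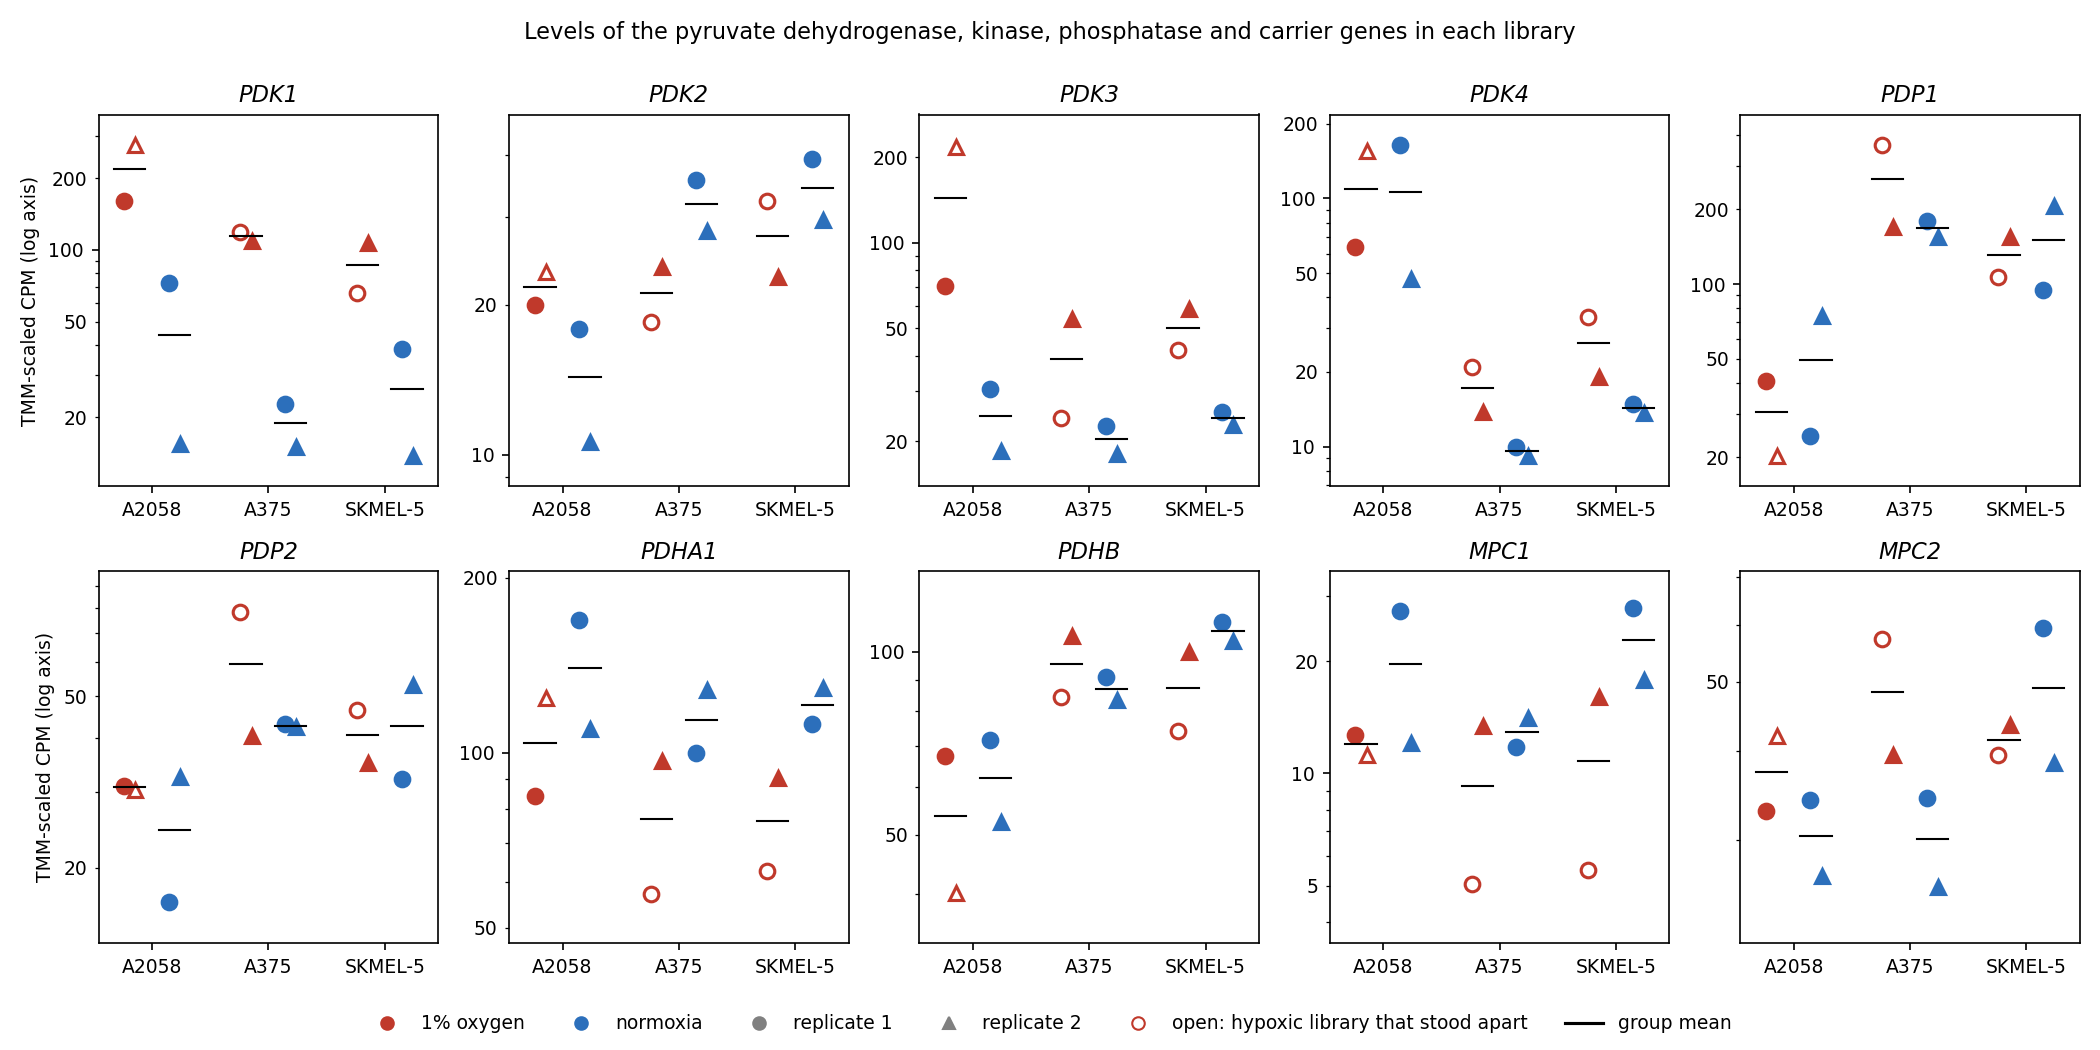
Level of each of the 10 members in every library (TMM-scaled CPM, log axis), by line, with hypoxic libraries left of normoxic libraries; each point is 1 library and each bar the mean of 2. PDK1 and PDK3 are the members whose hypoxic libraries lie above the normoxic libraries in all 3 lines.

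Separation of the hypoxic from the normoxic libraries in all 3 lines was found upward for 2 of 10 members, PDK1 and PDK3, and for 4.86% of all tested genes. Downward it was found for 0 of 10 members and for 2.79% of all tested genes. Over the 3 lines DESeq2 called PDK1 and PDK3, among 8.7% of the genes to which it gave an adjusted p, and limma-voom called PDK1, among 0.906% of all genes. Within a single line edgeR with its low-count filter called 0 of 10 members, with 0.0102% of all genes called in A2058 and 0% in A375 and in SKMEL-5. An unadjusted p under 0.05 was reached in A2058 by PDK1 and PDK3 (9.16% of all genes), in A375 by PDK1 (5.6%) and in SKMEL-5 by PDK1 (6.53%). DESeq2 called PDK1 and PDK3 in A2058 (2.24% of genes), PDK1 in A375 (0.734%) and 0 members in SKMEL-5 (0.692%). With limma-voom 0 members were called in each line, against 0.0509% of all genes in A2058 and 0% in the other two. With no low-count filter edgeR called PDK1 in A2058 (adjusted p = 0.000496), A375 (4.8e-05) and SKMEL-5 (0.0251) and PDK3 in A2058 (0.000146), among 1.06%, 1.03% and 0.936% of all genes in these lines. The single-line calls of both kinases thus depended on the tool and the filter.

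The call for PDK1 was lost under 9 of 21 alternative settings and that for PDK3 under 15 of 21, while the change stayed between 1.97 and 2.72 for PDK1 and between 1.18 and 1.80 for PDK3 (log2). Without the 3 hypoxic libraries that stood apart, PDK1 was at 2.13 (adjusted p = 0.208) and PDK3 at 1.38 (adjusted p = 0.0897). Since A375 and SKMEL-5 were so alike, the change was also averaged over A2058 and either of them. These means came from the same edgeR fit of all 12 libraries, so both lines still set the estimate of the spread. In the mean of A2058 and A375 PDK1 was at 2.45 (adjusted p = 0.0916) and PDK3 at 1.75 (adjusted p = 0.118). In the mean of A2058 and SKMEL-5 PDK1 was at 2.02 (adjusted p = 0.133) and PDK3 at 1.80 (adjusted p = 0.102). Single libraries whose omission ended the call for PDK1 were A2058 hypoxia 2, both A375 normoxic libraries and both SKMEL-5 normoxic libraries, with adjusted p from 0.0531 to 0.150. For PDK3 they were A2058 hypoxia 2, the 6 normoxic libraries and both SKMEL-5 hypoxic libraries, with adjusted p from 0.0685 to 0.199.

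PDK4 (ENSG00000004799.8, chr7:95583499-95596491, minus strand) encodes the kinase known for its induction by fasting and fatty acids in muscle and liver. It was at 63.7 and 155 CPM in hypoxic A2058 cells, against 164 and 47.2 CPM in normoxic A2058 cells. A375 had 20.9 and 13.8 CPM of PDK4 in hypoxia, against 9.96 and 9.19 CPM in normoxia. SKMEL-5 had 33.4 and 19.1 CPM of it in hypoxia, against 14.8 and 13.7 CPM in normoxia. The 2 oxygen conditions overlapped fully in A2058 and did not overlap in A375 or SKMEL-5. The 3-line mean change was 0.59 ± 0.33 (log2, adjusted p = 0.350), and it was 0.05 without the 3 libraries that stood apart.

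PDK2 (ENSG00000005882.12, chr17:50094737-50112152) is the most widely expressed kinase of the family across human tissues. In A2058 it was at 20.0 and 23.3 CPM in hypoxia, against 17.9 and 10.6 CPM in normoxia. Hypoxic A375 cells had 18.5 and 23.8 CPM, against 35.7 and 28.1 CPM in normoxic A375 cells. Hypoxic SKMEL-5 cells had 32.3 and 22.8 CPM, against 39.3 and 29.6 CPM in normoxic SKMEL-5 cells. Hypoxic libraries lay above normoxic ones in A2058, below them in A375, and overlapped them in SKMEL-5. Over the 3 lines the PDK2 value was -0.10 ± 0.22 (log2, adjusted p = 0.837), a mean over lines whose values had opposite signs, and it was -0.20 without the 3 libraries that stood apart.

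**Figure D2:**
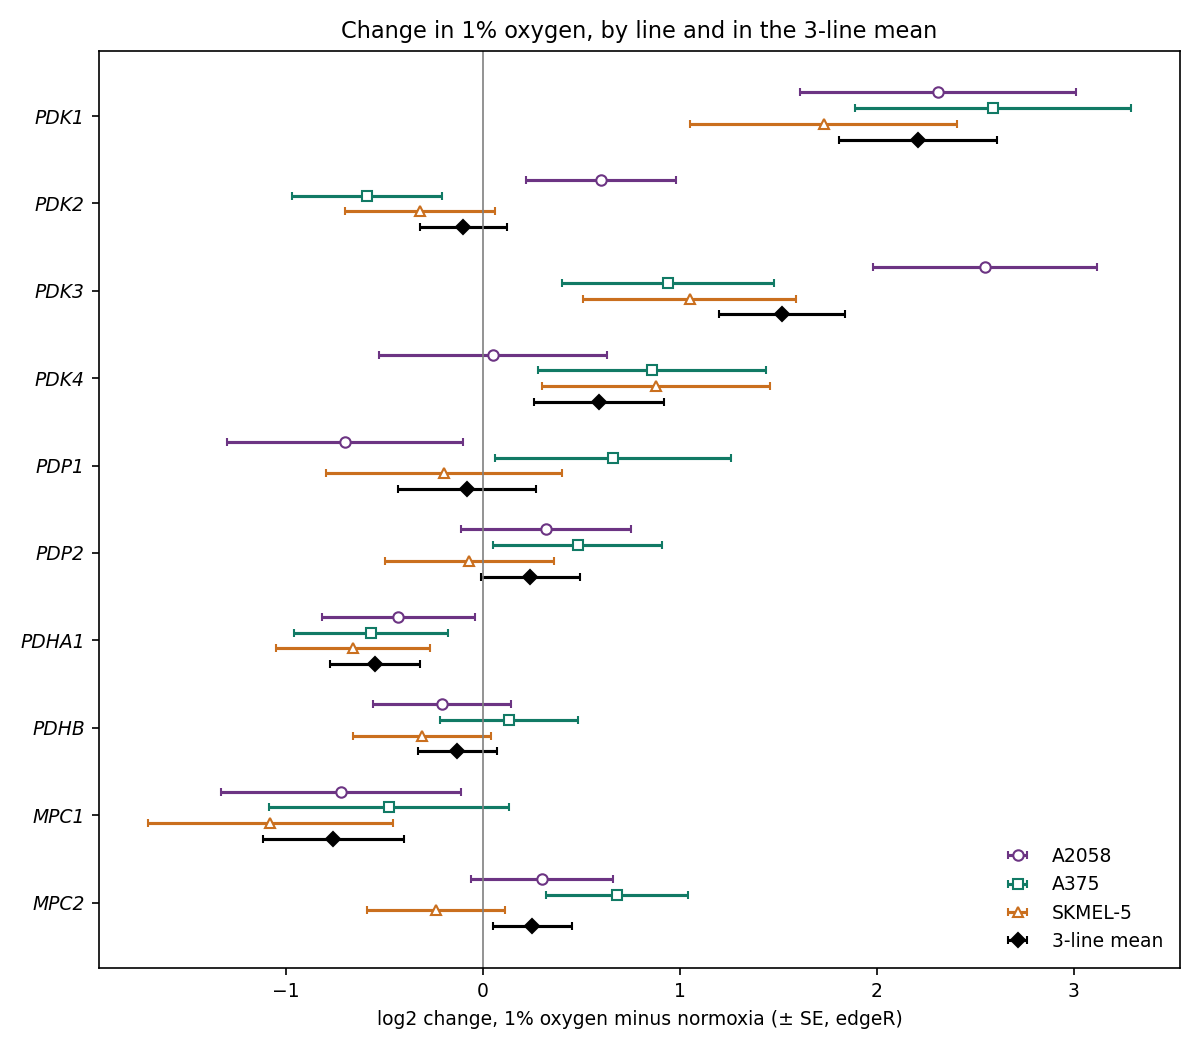
Change of each member, hypoxia minus normoxia (log2), in the 3-line mean and in each line, with error bars of 1 SE from edgeR's quasi-likelihood fit. The 3-line mean lies at 2.21 for PDK1 and 1.52 for PDK3, while the other 8 members lie between -0.76 and 0.59.

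The make-up of the kinase transcripts differed between oxygen conditions. Counts were divided by the exon length of each gene, so that the 4 kinases could be set beside each other, and expressed as a share of their sum. PDK1 made up 25.3% and 18.4% of the kinase transcripts in hypoxic A2058 cells, against 9.63% and 6.06% in normoxic A2058 cells. In A375 its share was 38.2% and 28.6% in hypoxia, against 10.3% and 8.51% in normoxia. In SKMEL-5 its share was 16.9% and 26.4% in hypoxia, against 14.3% and 6.58% in normoxia. The hypoxic shares of PDK1 were above the normoxic shares in every line. The log2 ratio of PDK1 to the other 3 kinases was higher in hypoxia by 1.74 in A2058, by 2.27 in A375 and by 1.32 in SKMEL-5. Libraries within a group had a pooled SD of 0.54 in this ratio. Its mean difference was 1.77, and it was 1.90 without the 3 libraries that stood apart.

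PDK2 showed the reverse order in A375 and SKMEL-5. Its share was 16.2% and 16.9% in hypoxic A375 cells, against 43.9% and 43.4% in normoxic A375 cells. In SKMEL-5 it was 22.5% and 15.2% in hypoxia, against 39.5% and 38.6% in normoxia. PDK2 was below PDK3 in the hypoxic cells of these lines and above it in their normoxic cells. PDK4 held 32.9% and 34.0% in hypoxic A2058 cells, against 71.8% and 60.9% in normoxic A2058 cells, where it was the largest share. PDK3 made up 33.2% and 43.4% of kinase transcripts in hypoxic A2058 cells, against 12.1% and 21.8% in normoxic A2058 cells. Its shares overlapped between the conditions in the other lines. In A375 they were 23.4% and 42.6% in hypoxia, against 30.9% and 30.9% in normoxia. In SKMEL-5 they were 32.3% and 43.1% in hypoxia, against 28.3% and 33.0% in normoxia. A share moves when any of the 4 kinases moves, so these values are a description. They also rest on the lengths used: with the longest coding transcript as the length, PDK1 held 10.3% to 25.9% in hypoxic and 3.81% to 8.62% in normoxic libraries, and PDK3 39.2% to 61.9% in hypoxic and 22.0% to 47.0% in normoxic libraries. On those lengths PDK2 held 34.0% to 39.0% in normoxic A375 and SKMEL-5 libraries and lay below PDK3 in each of them. PDK1 had 14883 bases of exon and 14193 in its longest coding transcript, while PDK3 had 4951 and 1921. The second set of lengths thus hardly tested the length used for PDK1.

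**Figure D3:**
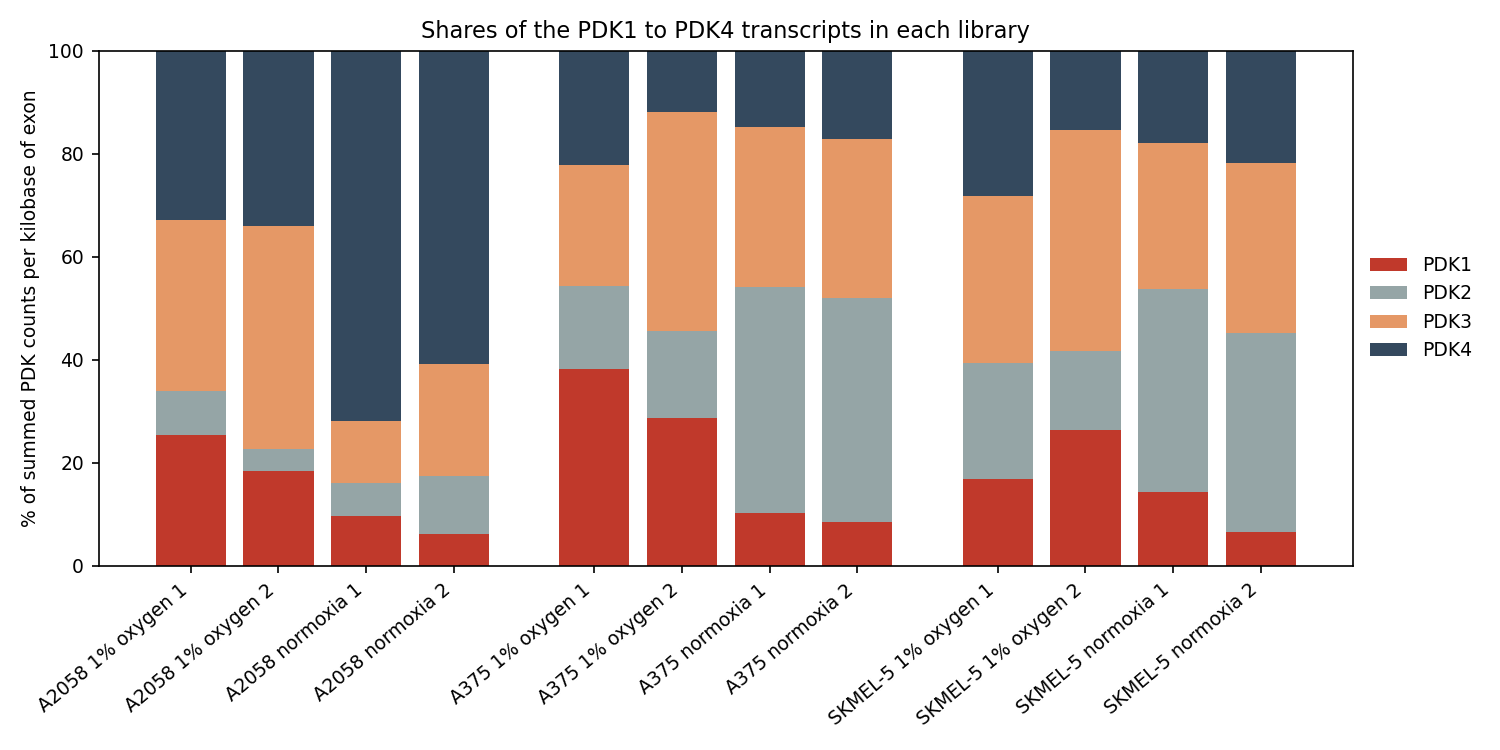
Share of each kinase in the summed PDK counts per kilobase of exon (percent), 1 bar per library, with hypoxic libraries left of normoxic libraries in each line. PDK1 holds 16.9% to 38.2% in hypoxic libraries and 6.06% to 14.3% in normoxic libraries, and PDK4 leads in normoxic A2058 cells.

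The 2 phosphatases did not pass the test. PDP1 (ENSG00000164951.16, chromosome 8) encodes the calcium-sensitive isoform and PDP2 (ENSG00000172840.7, chr16:66878589-66895754) the isoform known to respond to insulin. PDP1 was at 40.6 and 20.3 CPM in hypoxic A2058 cells, against 24.5 and 74.4 CPM in normoxic A2058 cells. A375 had 363 and 169 CPM of PDP1 in hypoxia, against 180 and 155 CPM in normoxia. SKMEL-5 had 107 and 155 CPM of it in hypoxia, against 94.2 and 206 CPM in normoxia. The conditions overlapped in each line, and the 363 CPM of A375 hypoxia 1, a library that stood apart, was the highest value. For PDP1 the mean change was -0.08 ± 0.35 (log2, adjusted p = 0.943), and it was -0.10 without the 3 libraries. PDP2 ranged from 30.3 to 78.4 CPM in hypoxic and from 16.6 to 53.1 CPM in normoxic libraries and also overlapped in every line, with a change of 0.24 ± 0.25 (adjusted p = 0.621) that was -0.03 without the 3 libraries.

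The balance of kinase to phosphatase transcripts was taken as the log2 ratio of the summed PDK to the summed PDP levels per kilobase. It was higher in hypoxia by 1.38 in A2058, by 0.26 in A375 and by 0.84 in SKMEL-5, with a mean of 0.83. The pooled SD of single libraries within a group was 1.17, and hypoxic and normoxic libraries overlapped in all 3 lines. Leaving out single libraries moved the mean difference between 0.33 and 1.33, and it was 0.70 without the 3 that stood apart. No test was run on this ratio.

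The dehydrogenase subunits themselves did not pass the test. PDHA1 (ENSG00000131828.14, chrX:19343893-19361705), the alpha subunit that the kinases phosphorylate, was at 84.4 and 124 CPM in hypoxic A2058 cells, against 169 and 110 CPM in normoxic A2058 cells. PDHA1 was at 57.1 and 96.6 CPM in hypoxic A375 cells, against 99.8 and 128 CPM in normoxic A375 cells. It was at 62.6 and 90.3 CPM in hypoxic SKMEL-5 cells, against 112 and 129 CPM in normoxic SKMEL-5 cells. Hypoxic libraries lay below normoxic ones in A375 and SKMEL-5 and overlapped in A2058. The 3-line mean change was -0.55 ± 0.23 (log2, unadjusted p = 0.0326, adjusted p = 0.224), with the values of the 3 lines between -0.66 and -0.43. The mean change of PDHA1 was -0.48 without the 3 libraries that stood apart. An unadjusted p under 0.05 was reached by 3 members in this mean (PDK1, PDK3 and PDHA1) and by 19% of all genes. PDHB (ENSG00000168291.13, chr3:58427630-58433857, minus strand), the beta subunit, ranged from 40.2 to 106 CPM in hypoxic and from 52.6 to 112 CPM in normoxic libraries, with a change of -0.13 ± 0.20 (adjusted p = 0.766) that was 0.08 without the 3 libraries. The log2 ratio of PDHA1 to PDHB was lower in hypoxia by a mean difference of -0.42, about the pooled SD of 0.43 of single libraries within a group. The conditions overlapped in A2058, where hypoxia 2 had the highest ratio of that line at 1.69. The mean difference was -0.21 without A2058 hypoxia 1, -0.64 without A2058 hypoxia 2 and -0.55 without the 3 libraries that stood apart.

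MPC1 and MPC2, which form the carrier together, did not pass either. MPC1 (ENSG00000060762.19, chr6:166364919-166383013, minus strand) was at 12.7 and 11.2 CPM in hypoxic A2058 cells, against 27.3 and 12.1 CPM in normoxic A2058 cells. In A375 it was at 5.05 and 13.4 CPM in hypoxia, against 11.8 and 14.1 CPM in normoxia. In SKMEL-5 it was at 5.51 and 16.1 CPM in hypoxia, against 27.9 and 17.8 CPM in normoxia. The lowest values, 5.05 and 5.51 CPM, were those of A375 hypoxia 1 and SKMEL-5 hypoxia 1, which stood apart. On average over the lines MPC1 was at -0.76 ± 0.36 (log2, adjusted p = 0.276) and -0.38 without the 3 libraries that stood apart (adjusted p = 0.730). MPC2 (ENSG00000143158.11, chr1:167916729-167937040, minus strand) ranged from 32.9 to 57.3 CPM in hypoxic and from 25.8 to 59.5 CPM in normoxic libraries, with a change of 0.25 ± 0.20 (adjusted p = 0.527) that was 0.09 without the 3 libraries.

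The ratio of the carrier's subunits separated the conditions in each line. The log2 ratio of MPC1 to MPC2 per kilobase was -0.65 and -1.18 in hypoxic A2058 cells, against 0.40 and -0.42 in normoxic A2058 cells. In A375 it was -2.78 and -0.83 in hypoxia, against -0.82 and -0.15 in normoxia. In SKMEL-5 it was -2.12 and -0.71 in hypoxia, against -0.37 and -0.39 in normoxia. Every hypoxic library was below both normoxic libraries of its line, narrowly so for 1 pair in A375. The mean difference was -1.09, with a pooled SD within a group of 0.78, and it was -0.44 without the 3 libraries that stood apart. No p was computed for a ratio of members, and the share of other gene pairs that separate the conditions in this way was not measured.

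Reads of overlapping genes bear on some of these values. The exons of PDK1, PDK2, PDHA1, PDHB and MPC2 overlap exons of a gene on the opposite strand, and the strand setting of the counting is not given in the sources used here. DCAF6 had 29246 counts over the 12 libraries beside 20713 for MPC2, and SAMD14 had 2996 beside 13644 for PDK2. The overlapping gene of PDK1 had 1088 counts beside 42514, MAP3K15 had 2142 beside 55444 for PDHA1, and the overlapping gene of PDHB had 89 beside 44517. Reads from such a pair may have been assigned to either gene. These are counts of whole genes, and how many reads fall in the shared exons was not measured. The pseudogenes PDK1P2 and PDHA1P1 and the paralog MPC1L had no count.

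Set beside each other per kilobase of exon, the members held different places in each line. In hypoxic A2058 cells the order of mean levels began with PDK3 (29.0), PDK4 (24.2) and PDHA1 (23.2 CPM per kilobase), while in normoxic A2058 cells it began with PDHA1 (31.1) and PDK4 (23.4). In hypoxic A375 cells PDP1 was first at 47.4 CPM per kilobase and PDK1 was sixth at 7.64, and in normoxic A375 cells PDP1 was first at 30.0 and PDK1 last at 1.27. In hypoxic SKMEL-5 cells PDP1 was first at 23.4 and PDK1 was seventh at 5.82, and in normoxic SKMEL-5 cells PDHA1 (26.9) and PDP1 (26.8) led and PDK1 was last at 1.75. In hypoxic A2058 cells the ranges of PDK3, PDK4 and PDHA1 over the 2 libraries overlapped. Those of PDHA1 and PDK4 overlapped in normoxic A2058 cells, and those of PDHA1 and PDP1 in normoxic A375 and normoxic SKMEL-5 cells. In A375 normoxia 2 PDHA1 was at 28.5 and PDP1 at 27.7. PDP1 also overlapped PDHB and PDHA1 in hypoxic SKMEL-5 cells. The ranges of PDK1 overlapped those of its neighbours in the order in hypoxic A375 and hypoxic SKMEL-5 cells. The order depended on the length used. With the longest coding transcript as the length, PDHB came first in A375 (62.4 in hypoxia and 57.0 in normoxia), in SKMEL-5 (57.1 in hypoxia and 70.8 in normoxia) and in normoxic A2058 cells (40.6), and PDK3 stayed first in hypoxic A2058 cells (74.8). PDK1 had the lowest mean in the normoxic cells of every line on those lengths. Its length was much the same both ways, 14883 bases of exon and 14193 of longest coding transcript, so its place was hardly tested. In CPM, without length, PDK1 was not the lowest: it averaged 18.9 in normoxic A375 cells, above PDK4 (9.57) and MPC1 (12.9). In normoxic SKMEL-5 cells it averaged 26.1 CPM, above PDK4 (14.3) and MPC1 (22.9). Ranges overlapped between PDHB and PDP1 (61.0) in hypoxic A375 cells, and between PDHB and PDHA1 (40.1) in normoxic A2058 cells. They also overlapped between PDK3 and PDHB in hypoxic A2058 cells, and between PDK1 (3.1) and PDP2 (3.43) in normoxic A2058 cells.

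A2058 differed from the other lines in PDK4 and PDP1. Averaged over both oxygen conditions, PDK4 was 8.35-fold higher in A2058 than in A375 (log2 3.06 ± 0.44, adjusted p = 0.000446) and 5.57-fold higher in A2058 than in SKMEL-5 (2.48 ± 0.43, adjusted p = 0.00150). PDP1 ran the other way, with log2 differences of -2.44 ± 0.45 for A2058 minus A375 (adjusted p = 0.00200) and -1.85 ± 0.44 for A2058 minus SKMEL-5 (adjusted p = 0.00901). Every A2058 library had more PDK4 and less PDP1 than every A375 and SKMEL-5 library. These were 2 of 10 members called in A2058 minus A375, where 27.6% of all genes were called. In A2058 minus SKMEL-5, 4 of 10 members were called against 26.8% of all genes, the others being PDK2 (-0.81 ± 0.27, adjusted p = 0.0443) and PDHB (-0.75 ± 0.25, adjusted p = 0.0442). DESeq2 called 5 of 10 in A2058 minus A375, adding PDK3, PDP2 and PDHB (32.9% of genes), and limma-voom called PDK4 and PDP1 (27.7%). In A2058 minus SKMEL-5 both called the same 4 members as edgeR (31.7% of genes with DESeq2 and 27.3% with limma-voom). PDK3 in A2058 minus A375 also passed without A375 hypoxia 2 (adjusted p = 0.0237) and without A2058 hypoxia 1 (adjusted p = 0.0178). With so many genes called between the lines, the edgeR counts are near the background. The PDK2 call was lost under 11 of 19 alternatives and the PDHB call under 12 of 19. In A2058 minus SKMEL-5 the PDK4 and PDP1 calls were each lost under 1 of 19, the replicate block. Between A375 and SKMEL-5 edgeR called 0 of 10 members and 0.0102% of all genes, with 0 members at an unadjusted p under 0.05 (1.78% of all genes). DESeq2 and limma-voom also called 0 members there, against 0.168% and 0.0866% of all genes.

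The hypoxia change itself was compared between the lines. The smallest unadjusted p of that edgeR F test was 0.105, for PDK3, and the next 0.106, for PDK2, each with an adjusted p of 1. EdgeR called 0 of 10 members and 0% of all genes, and an unadjusted p under 0.05 was reached by 0 members and 1.6% of all genes. DESeq2 called 0 members and 0.0953% of genes, and limma-voom 0 members and 0% of all genes. A difference between lines in the response of a member was thus not detectable with 2 libraries per group.

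Other genes of pyruvate use were read from lists written down with earlier results of these data known. LDHA, the lactate dehydrogenase subunit that favours making lactate, rose 2.75-fold (log2 1.46 ± 0.23, adjusted p = 0.0168). It was at 2721 to 4494 CPM in hypoxic libraries and at 934 to 1498 CPM in normoxic libraries, with no overlap. LDHA was the 1 of 9 tested genes of the lactate route and its carriers that passed, and 0 fell. At an unadjusted p under 0.05 there were 5 of the 9, against 19% of all tested genes. DESeq2 called 3 (LDHA, SLC16A3 and BSG), against 8.7% of the genes to which it gave an adjusted p. Limma-voom called LDHA, against 0.906% of all genes, and edgeR's share of all genes was 1.12%. The median change of those 9 was 0.73 on the log2 scale (0.48 without the 3 libraries that stood apart), where the median of all tested genes was 0.02 and that of the 10 members 0.08. 

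Among 13 tested genes of other routes into and out of mitochondrial pyruvate, ME1, the cytosolic malic enzyme that makes pyruvate from malate, rose 3.17-fold (log2 1.66 ± 0.24, adjusted p = 0.0115) and 0 fell. EdgeR thus called 1 of the 13, against 1.12% of all tested genes. An unadjusted p under 0.05 was reached by 4 of the 13, against 19% of all tested genes. DESeq2 called 2, ME1 and SLC25A1 (8.7% of its genes), and limma-voom called ME1 (0.906% of all genes). The median change of those 13 was 0.18, and it was -0.03 without the 3 libraries. Of 12 tested genes for the other subunits and the lipoylation of the pyruvate dehydrogenase complex, edgeR called 0, against 1.12% of all tested genes. An unadjusted p under 0.05 was reached by 2 of the 12 and by 19% of all tested genes. DESeq2 called 1 of the 12 and limma-voom 0. The median of those 12 was -0.24, with or without the 3 libraries. DLAT, the acetyltransferase core of the complex, was at -0.35 ± 0.26 (adjusted p = 0.467).

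The sister dehydrogenase complexes share the architecture of the pyruvate dehydrogenase complex. Of their 10 tested genes edgeR called 0, with 2 at an unadjusted p under 0.05 (19% of all tested genes). DESeq2 called 1, BCKDHA (8.7% of its genes), and limma-voom 0 (0.906% of all genes). The median was 0.11 (0.00 without the 3 libraries), and BCKDHA, the alpha subunit of the branched-chain dehydrogenase, had a change of 1.68 ± 0.40 (adjusted p = 0.0740). Of 13 tested transcriptional regulators known for PDK genes, EPAS1, which encodes HIF-2 alpha, rose in edgeR's test (2.75 ± 0.48, adjusted p = 0.0267) and 0 fell. EdgeR thus called 1 of these 13, against 1.12% of all tested genes. An unadjusted p under 0.05 was reached by 3 of them, against 19% of all tested genes. DESeq2 called 3 of the 13, EPAS1, FOXO3 and NR3C1, against 8.7% of its genes, and limma-voom called 0. The median was 0.48, and it was 0.08 without the 3 libraries that stood apart. HIF1A, whose product is controlled mainly through protein stability, was at 0.48 ± 0.25 (adjusted p = 0.320). As a check of the hypoxia labels, 9 of 12 HIF target genes rose in edgeR's test, against 0.978% of all tested genes. DESeq2 called 11 of them, against 8.7% of its genes, and limma-voom 9, against 0.906% of all genes. Their median was 2.22 (1.89 without the 3 libraries that stood apart). This list too was written with earlier results known, so it is not an independent check. Over all genes the number called was 30 without those 3 libraries, against 220 with them, and LDHA, ME1 and EPAS1 were then not among the genes called.

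The genes whose pattern over the 12 libraries was most like that of PDK1 were found by the root mean square difference of log2 CPM after each line's mean was taken out. They were FAM162A (0.175), BNIP3L (0.204), GPR146 (0.236), INSIG2 (0.262) and C2orf72 (0.349), where the median over all genes was 1.42. Of these, BNIP3L, a mitophagy receptor, had a 3-line mean change of 2.18 ± 0.39 (adjusted p = 0.0284), and INSIG2, which holds back sterol synthesis, changed by 2.17 ± 0.32 (adjusted p = 0.0125). FAM162A was at 2.12 ± 0.47 (adjusted p = 0.0583). LDHA lay at a difference of 0.654 from PDK1 and PDK3 at 0.777. The genes most like PDK3 were ZNF395 (0.232), FAM234B (0.233), SEMA4B (0.279), RNF128 (0.289) and LNPK (0.300), where the median over all genes was 1.03. SEMA4B changed by 1.52 ± 0.25 (adjusted p = 0.0218) and LNPK by 1.71 ± 0.26 (adjusted p = 0.0139), while ZNF395 was at 1.27 ± 0.27 (adjusted p = 0.0513). FAM234B was at 1.21 ± 0.33 (adjusted p = 0.101) and RNF128 at 1.53 ± 0.42 (adjusted p = 0.105), so neither was called. All of these genes were picked for closeness to PDK1 or PDK3 over the same libraries. Changes near those of PDK1 and PDK3 thus followed from the choice and are a description. The 2 sets of 5 had no gene in common.

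**Figure D4:**
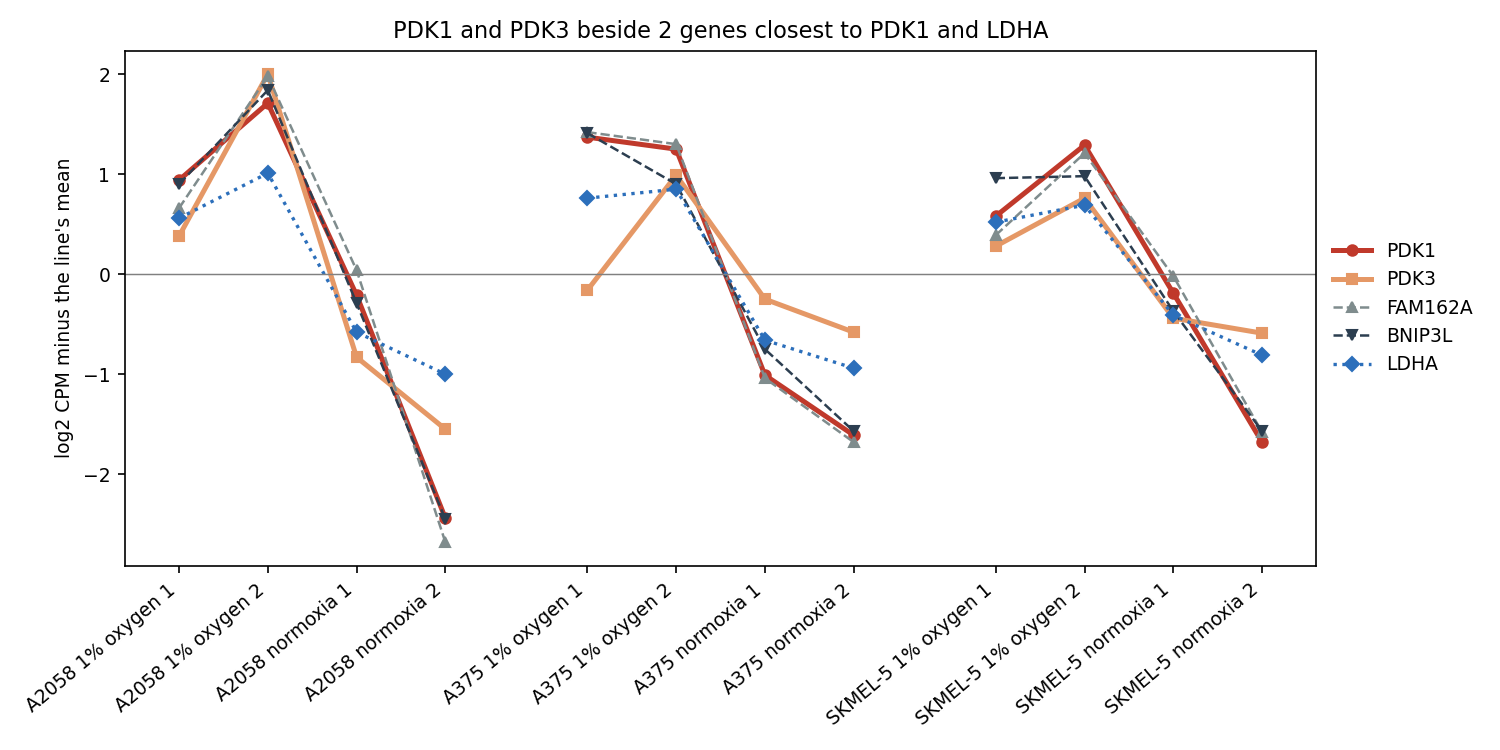
Log2 CPM of PDK1 and PDK3 beside LDHA and the genes nearest to PDK1, FAM162A and BNIP3L, in the 12 libraries. Each line's mean is subtracted, and hypoxic libraries are left of normoxic libraries in each line. The root mean square difference from PDK1 is 0.175 for FAM162A, 0.204 for BNIP3L and 0.654 for LDHA. In each line normoxic replicate 1 lies above normoxic replicate 2 for PDK1.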

How the data were processed

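Total RNA (RNeasy kit) went into NuGen Universal Plus mRNA libraries, per the labels' protocols. Reads were handled with STAR 2.5.0a, Trim Galore 0.6.1 and bcl2fastq 2.20, with GRCh38 as the build, per the submitters' processing notes. Neither the counter nor its strand setting or annotation is given in the sources used here. The values deposited by the authors are raw counts, 1 column per library, not normalized.

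Symbols came from a reference table that matched 60445 of 60656 IDs, and positions and exon lengths from GENCODE 29. Under edgeR 4.0.16 (R 4.3.3) genes were filtered by filterByExpr (minimum count 10), scaled by TMM and fitted by a quasi-likelihood model with 1 mean per group over all 12 libraries, leaving 6 residual degrees of freedom. The SE of a change is its size over the square root of its F statistic. The alternatives were DESeq2 1.42.0 and its size factors, limma 3.58.1 (voom), other filters, a replicate block and omitted libraries, and, for shares and ratios, CPM without length, another pseudocount and longest coding transcripts as lengths, the last chosen after seeing the data. On simulated counts for the 3-line mean (19175 genes), 20% of 2-fold and 87% of 4-fold changes were recovered, with 4 false calls among all genes. A count of 0 allowed 0.0553 to 0.0887 CPM (3 counts of a library's total), which covers counting error only.

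The members and all lists were chosen with earlier results of these data known. The text names all members, up to 4 called genes of each list by smallest p or else the gene with the smallest p, a few genes fixed by name and the 5 genes most like each called member. Most HIF targets are given only as a count, and 1 gene that this rule would name is not reported here.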

Additional observations from a re-analysis of the deposited data

Results flagged for a closer look

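PDK2 was singled out because its libraries moved in opposite directions in a pair of lines. Its change, hypoxia minus normoxia, was 0.60 ± 0.38 on the log2 scale in A2058 (unadjusted p = 0.138 in edgeR's test). There both hypoxic libraries lay above both normoxic ones. The change was -0.59 ± 0.38 in A375 (unadjusted p = 0.144 in the same test), where both hypoxic libraries lay below both normoxic ones. Neither change was thus called, and the share of all genes that separate in this way was not measured. The test of a difference between the 3 lines in edgeR's quasi-likelihood fit had an adjusted p of 1 for PDK2. A test of A2058 against A375 alone was not run. PDK2 overlaps SAMD14 on the opposite strand, and the part of that overlap in the PDK2 values was not tested.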

How the results depend on the processing

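The number of genes called in the 3-line mean was 220, and it was 1543 with DESeq2, 1855 with no low-count filter, 91 with the replicate block, 30 without the 3 hypoxic libraries that stood apart, 48 with A2058 and A375 alone and 34 with A2058 and SKMEL-5 alone. It ran from 15 to 1120 when single libraries were left out. In A2058 the count was 2, and it was 372 with DESeq2, 10 with limma-voom and 397 with no filter. There it was 1 with the filter at 1 CPM in 2 libraries and 0 with the replicate block. It was 0 in A375 and SKMEL-5, against 119 and 120 with DESeq2 and 384 and 350 with no filter, and 0 for the difference between lines, against 14 with DESeq2 and 83 with no filter. Single omissions gave 0 to 13 in A2058, 0 to 8 in A375, 0 to 1 in SKMEL-5 and 0 to 3 for A375 minus SKMEL-5. The last was 2, and it was 33 with DESeq2, 17 with limma-voom, 58 with no filter and 0 with the block. With the replicate block A2058 minus A375 gave 2491 genes, not 5418, and A2058 minus SKMEL-5 gave 2298, not 5260. The block left 3 residual degrees of freedom. Replicate numbers are not stated to pair libraries, so the block was kept as an alternative. The replicate differences of hypoxic and normoxic libraries correlated at -0.30 in A2058, at 0.23 in A375 and at 0.26 in SKMEL-5. These values differ in sign and do not settle whether libraries were paired. Under the block PDK1 was at 2.38 (adjusted p = 0.0664) and PDK3 at 1.42 (adjusted p = 0.111), PDK4 in A2058 minus SKMEL-5 was at 2.39 (no longer called) and PDP1 at -1.54 (adjusted p = 0.144).

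Signs turned round only for values that were not called. With limma-voom PDK1 in A375 minus SKMEL-5 was 0.07 and MPC1 in A2058 minus SKMEL-5 was 0.01, which was 0.50 with the block. For PDK2 the mean of A2058 and A375 was 0.01 and that of A2058 and SKMEL-5 was 0.14, unlike the 3-line mean of -0.10. Without the 3 libraries that stood apart, the changes turned to -0.74 for PDK4 in A2058, -0.03 for PDP1 in A375, 0.05 for PDP1 in SKMEL-5, -0.03 for PDP2 in the mean, -0.12 for PDP2 in A375, 0.08 for PDHB in the mean, 0.10 for PDHB in A2058, 0.02 for MPC1 in A375 and, in A375 minus SKMEL-5, 0.01 for PDHA1. When single libraries were left out, the 3-line mean ran from -0.21 to 0.05 for PDK2 and from -0.30 to 0.26 for PDP1. In A2058 it ran from -0.72 to 1.19 for PDK4, -1.30 to 0.33 for PDP1, -0.10 to 0.89 for PDP2 and -0.62 to 0.13 for PDHB. In A375 it ran from -0.03 to 1.10 for PDP1, -0.12 to 0.86 for PDP2, -0.06 to 0.25 for PDHB and -1.37 to 0.02 for MPC1. In SKMEL-5 it ran from -0.62 to 0.48 for PDP1, -0.34 to 0.34 for PDP2 and -0.52 to 0.14 for MPC2. In A375 minus SKMEL-5 it ran from -0.32 to 0.43 for PDK1, -0.02 to 0.48 for PDP2, -0.25 to 0.11 for PDHA1 and -0.18 to 0.03 for PDHB, and in A2058 minus SKMEL-5 from -0.37 to 0.45 for MPC1. The cause was not tested. The 4 ratios between members kept their direction under each alternative tried. Depth was high enough that none of the members lay near the limit a count of 0 allows, and the 2 libraries per group set the precision.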
